A study of Mus musculus with 6 samples.

Results

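The circRNAs described here come from genes of small GTPases, their regulators and their effectors, called GTPase regulator genes below. CircRNAs are RNA rings that form when splicing joins the end of an exon backwards, to the start of that exon or one before it. Probes were taken when they stood in the study's tables of lower or higher circRNAs or on its list of circRNAs bound by HuD. Their host symbol had to start with Arhgap, Arhgef, Dock, Rapgef, Rasgrf, Rasgrp, Rasa, Syngap, Tbc1d, Dennd, Rab, Rap1, Rgs, Srgap, Iqsec, Agap, Asap, Ralgap, Elmo, Fgd, Sipa1, Tiam, Vav, Trio, Kalrn or Arfgef. This gave 94 circRNAs of 70 host genes, among 3056 circRNAs on the tables or the list and 14236 circRNA probes on the array. Of the 94, 25 stood in the lower table, 46 in the higher table and 27 on the HuD-bound list, and 4 were both HuD-bound and in the higher table.

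Striatal RNA was taken from 3 mice without HuD (HuD KO, Elavl4-/-) and from 3 WT littermates, all adult males of the C57BL6 background, with 1 array per mouse. HuD is an RNA-binding protein of neurons. RNA was treated with RNase R, which digests linear RNA, and labelled with Cy3. The HuD-bound list came from other mice: myc-tagged HuD, expressed in forebrain neurons from the Camk2a promoter, was immunoprecipitated from striatum, with tissue of 3 mice combined for each precipitation. Membership of that list therefore used none of the 6 arrays, and its circRNAs could be tested between HuD KO and WT. The lower and higher tables were chosen on these same 6 arrays, so changes of their members are given as a description, without a test. HuD-bound circRNAs of Rab6a (mmu_circRNA_41995), Agap1 (mmu_circRNA_20522), Rab11fip4 and Rab12 also stood in the higher table, so their calls are not independent of that choice.

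Small GTPases are molecular switches. Guanine nucleotide exchange factors (GEFs) load them with GTP, and GTPase-activating proteins (GAPs) return them to the GDP form. Rac and Cdc42 shape the actin of dendritic spines and growth cones, Ras, Rap and Ral carry signals from receptors to the synapse, and Rab and Arf proteins direct membrane vesicles. RGS proteins act on heterotrimeric G proteins and not on small GTPases. They were taken in by their symbol. So was Rab10os, a gene of a noncoding RNA, which has a circRNA in the lower table.

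A level here is the log2 background-corrected intensity of a probe, with the 75th percentile of all circRNA probes on its array subtracted. A level of 0 is thus the array's 75th percentile, and a negative level is below it. A log2 change is the mean of the 3 HuD KO arrays minus the mean of the 3 WT arrays. Differences were tested with limma over 13431 circRNA probes, with p-values adjusted by the Benjamini-Hochberg method, and a probe was called at an adjusted p under 0.05. The share of probes well above background ran from 84.0% to 96.7% over the arrays. The HuD KO arrays were read in scans 1, 1 and 2 and all WT arrays in scan 3, so that scan and genotype cannot be told apart. Across all probes, 26.1% were called higher and 37.2% lower in HuD KO, and the median log2 change was -0.11. This median depended on the scaling: it was 0.12 with quantile normalization, 0.09 with the array median, 0.41 without scaling and -0.80 with scaling on the 14 circRNA control probes. Elavl4 was not among the hosts named in the tables or the list, so the knockout itself could not be checked on these arrays. The arrays measured whole striatum, where fewer cells of a type and less circRNA per cell cannot be told apart.

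Of 5 host genes more than 1 circRNA was HuD-bound, and 4 HuD-bound circRNAs were also in the higher table. Their 60-base junction sequences, as given with the array's probes, are shown because they are what tells circles of 1 gene apart on the array. They are printed 5′ to 3′, and capitals mark a stretch of at least 12 bases that 2 circles of the same host share.
Agap1 mmu_circRNA_012296: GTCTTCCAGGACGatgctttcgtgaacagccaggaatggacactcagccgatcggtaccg
Agap1 mmu_circRNA_017649: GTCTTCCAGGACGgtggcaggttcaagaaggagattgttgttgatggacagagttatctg
Agap1 mmu_circRNA_20522: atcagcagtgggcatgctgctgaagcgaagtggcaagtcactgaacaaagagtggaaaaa
Kalrn mmu_circRNA_008365: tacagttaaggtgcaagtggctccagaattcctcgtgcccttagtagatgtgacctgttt
Kalrn mmu_circRNA_29605: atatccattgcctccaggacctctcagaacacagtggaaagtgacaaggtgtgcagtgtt
Rab10 mmu_circRNA_24518: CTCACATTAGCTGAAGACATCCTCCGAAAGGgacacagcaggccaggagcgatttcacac
Rab10 mmu_circRNA_24519: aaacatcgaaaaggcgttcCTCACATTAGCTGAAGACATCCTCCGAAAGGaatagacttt
Rab11fip4 mmu_circRNA_23825: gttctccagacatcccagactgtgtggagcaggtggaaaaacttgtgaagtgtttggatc
Rab12 mmu_circRNA_30799: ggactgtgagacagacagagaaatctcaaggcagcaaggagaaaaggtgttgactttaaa
Rab6a mmu_circRNA_41995: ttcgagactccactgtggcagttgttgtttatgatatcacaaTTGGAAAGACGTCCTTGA
Rab6a mmu_circRNA_41996: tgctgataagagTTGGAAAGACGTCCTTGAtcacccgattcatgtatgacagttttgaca
Tiam1 mmu_circRNA_29999: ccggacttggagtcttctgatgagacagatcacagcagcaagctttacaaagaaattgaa
Tiam1 mmu_circRNA_30006: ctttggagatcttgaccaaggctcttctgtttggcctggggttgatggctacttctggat

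The shared stretches belonged to circles that share a splice site. Positions are as deposited, with no genome build stated, and all 94 circles lay inside their host in the GRCm38.p6 gene table. The Rab10 circles on chromosome 12 share position 3252611 and a stretch of 31 bases, the Rab6a circles on chromosome 7 share position 100626551 and 18 bases, and mmu_circRNA_012296 and mmu_circRNA_017649 of Agap1 on chromosome 1 share position 89634294 and 13 bases. The 2 circles of Tiam1, the 2 of Kalrn and mmu_circRNA_20522 of Agap1 shared no stretch of that length. HuD binds AU-rich RNA, whose core is often written ATTTA. These letters occurred in 0 of the 27 junction sequences of the HuD-bound circRNAs described here, in 32 of 631 (5.07%) of the other HuD-bound circRNAs and in 4.16% of all 3056. The reverse complement TAAAT occurred in 1 of the 27, in 3.49% of the other HuD-bound circRNAs and in 3.50% of all. The window holds 60 bases of each circle, so these counts say nothing of the rest of the circle.

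All 27 HuD-bound circRNAs were exonic, came from 21 hosts and were well above background on all 6 arrays. Their genomic spans ran from 927 to 110637 bp with a median of 8075 bp. In HuD KO, 9 of the 27 (33.3%) were called higher and 4 (14.8%) lower, against 26.1% and 37.2% of all probes. Among the 630 tested HuD-bound circRNAs of other hosts, 42.9% were called higher and 14.0% lower. The median log2 change of the 27 was 0.22, that of the other HuD-bound circRNAs was 0.37. The share called lower and the median thus lay nearer to the rest of the HuD-bound list than to the array as a whole, and the share called higher lay between both; these differences were not tested. The count depended on the scaling: 17 were higher and 0 lower without scaling, and 3 were higher and 15 lower with scaling on the control probes.

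**Figure D1:**
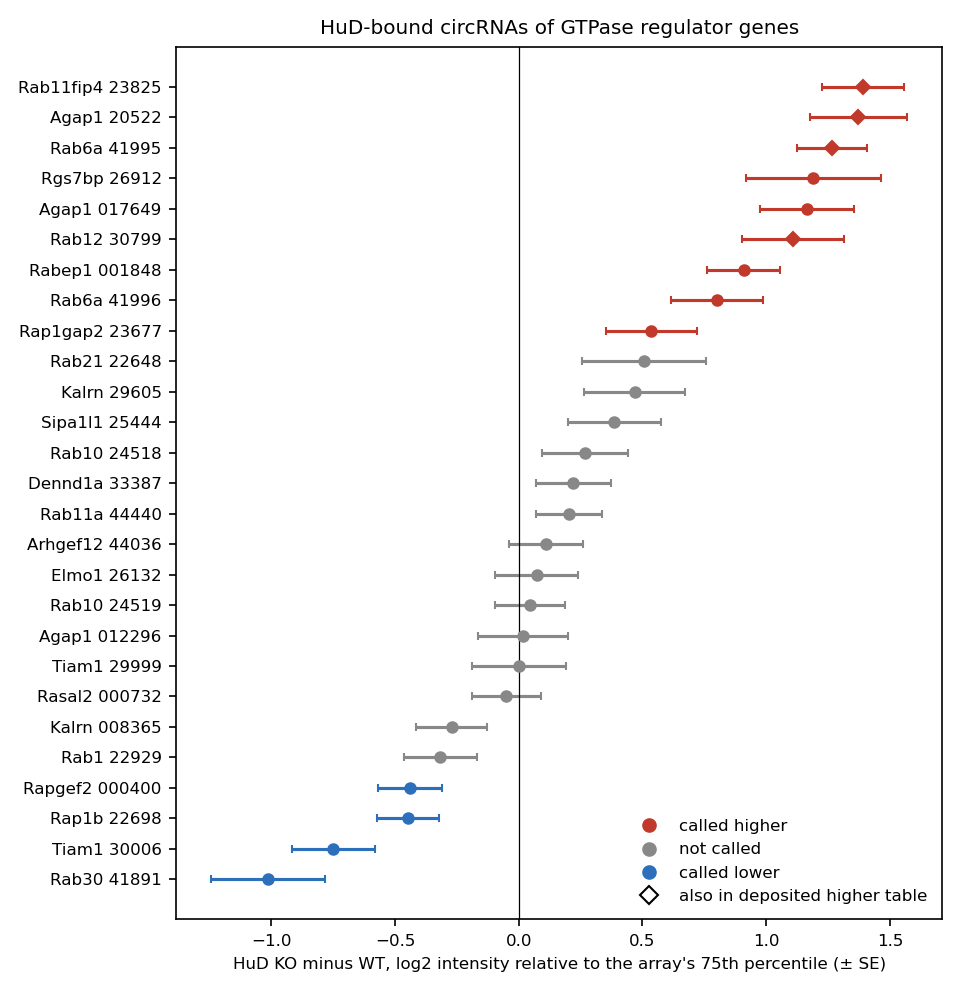
Log2 change (HuD KO minus WT, x axis, with SE) of each HuD-bound circRNA of a GTPase regulator gene, with diamonds for the 4 also in the higher table. At an adjusted p under 0.05, 9 circRNAs were higher and 4 lower in HuD KO; the falls of Rap1b and Rapgef2 turned positive without scaling, and the rise of Rap1gap2 turned negative with scaling on the control probes.

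Rab GTPases, which mark and move membrane compartments, made up 9 of the 27, from 7 hosts. Of these, 3 were called higher, 1 lower and 5 were not called, where all probes gave 26.1% higher and 37.2% lower and the HuD-bound circRNAs of other hosts 42.9% and 14.0%. Of the 11807 probes well above background on all 6 arrays, as these 9 were, 3530 were higher and 3710 lower. mmu_circRNA_41995 of Rab6a, a GTPase of the Golgi, had levels of 1.19, 1.44 and 1.19 on the HuD KO arrays and 0.08, -0.03 and -0.03 on the WT arrays. The groups did not overlap, as was the case for 29.8% of all probes in this direction. Its log2 change was 1.27 (SE 0.14, limma adjusted p = 0.000198). It was called higher under each of 17 alternative settings, scaling on the control probes included. The second Rab6a circle, mmu_circRNA_41996, had levels of 0.73, 0.76 and 0.23 in HuD KO and -0.05, -0.31 and -0.32 in WT. It rose by 0.80 (SE 0.19, limma adjusted p = 0.00633), a call lost with scaling on the control probes (0.11, limma adjusted p = 0.547). All HuD KO arrays were above all WT arrays, with HuD KO replicate 3 the lowest of the 3.

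mmu_circRNA_30799 of Rab12, a GTPase of recycling endosomes, had levels of -0.94, -0.77 and -1.53 in HuD KO and -2.22, -2.19 and -2.15 in WT. It rose by 1.11 (SE 0.21, limma adjusted p = 0.00223), with WT arrays close together and HuD KO replicate 3 again nearest to them; with scaling on the control probes the change was 0.42 and the call was lost (limma adjusted p = 0.0670). The fall in this family was that of mmu_circRNA_41891 of Rab30, a GTPase of the Golgi, which had levels of -3.96, -3.13 and -3.30 in HuD KO and -2.46, -2.60 and -2.28 in WT. Its log2 change was -1.01 (SE 0.23, limma adjusted p = 0.00566), and the groups did not overlap (40.4% of all probes in this direction). The call was lost with quantile normalization, where the change was -0.36 (limma adjusted p = 0.134), and without scaling (limma adjusted p = 0.214).

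The 5 Rab GTPase circRNAs not called were those of Rab1, Rab11a and Rab21 and both of Rab10. Rab10 acts in exocytosis and axon growth. Its mmu_circRNA_24519 had levels of 1.17, 1.20 and 1.16 in HuD KO and 1.22, 0.93 and 1.24 in WT. Its mmu_circRNA_24518 had levels of -0.35, -0.35 and -0.83 in HuD KO and -0.82, -0.84 and -0.66 in WT. The log2 changes were 0.045 and 0.27, and both groups overlapped for each circle. The changes of Rab1, a GTPase of transport from the endoplasmic reticulum, Rab11a, of recycling endosomes, and Rab21, of early endosomes, were -0.32, 0.20 and 0.51, with limma adjusted p-values of 0.0961, 0.210 and 0.112.

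Among Rab partners, circRNAs of the effectors Rab11fip4 and Rabep1 were higher. Rab11fip4 belongs to the proteins that bind Rab11 on recycling endosomes. Its mmu_circRNA_23825, with a span of 927 bp the most compact of the 27, had levels of 1.96, 1.99 and 2.35 in HuD KO and 0.66, 0.59 and 0.88 in WT. Its log2 change of 1.39 (SE 0.17, limma adjusted p = 0.000268) was the largest rise of the 27, and it was called under each of 17 alternatives. Rabep1 encodes Rabaptin-5, an effector of Rab5 on early endosomes. Its mmu_circRNA_001848 rose by 0.91 from 3.24 ± 0.18 in WT to 4.14 ± 0.07 in HuD KO (SD, n = 3 in each group, limma adjusted p = 0.00116). Its call was lost when arrays were scaled on the control probes (0.22, limma adjusted p = 0.290). The circRNA of Dennd1a, a GEF of Rab35, changed by 0.22 and was not called.

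Agap1, a GAP of Arf proteins on endosomes, gave 3 HuD-bound circRNAs that did not change alike. mmu_circRNA_20522 (chromosome 1, 89725960 to 89766464) had levels of 0.76, 0.67 and 0.30 in HuD KO and -0.50, -1.05 and -0.84 in WT. Its log2 change was 1.37 (SE 0.20, limma adjusted p = 0.00064), called under each of 17 alternatives. mmu_circRNA_017649 (89627760 to 89634294) had levels of 3.33, 2.87 and 3.48 in HuD KO and 2.08, 1.91 and 2.20 in WT, a rise of 1.16 (SE 0.19, limma adjusted p = 0.00118) that was 0.47 and not called with scaling on the control probes (limma adjusted p = 0.0964). mmu_circRNA_012296 (89604597 to 89634294) had levels of -0.44, -0.38 and 0.13 in HuD KO and -0.15, -0.30 and -0.29 in WT. The groups overlapped, and its change of 0.02 was not called. The circle that rose by 1.16 lies within the span of the circle that changed by 0.02, and both end at the same position.

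Tiam1, a GEF of Rac in dendritic spines, had 2 HuD-bound circles. mmu_circRNA_30006 (chromosome 16, 89955935 to 90066572) had levels of -0.56, -0.69 and -0.86 in HuD KO and 0.19, 0.16 and -0.22 in WT. It fell by 0.75 on the log2 scale (SE 0.17, limma adjusted p = 0.00555), and the call was lost without scaling (-0.23, limma adjusted p = 0.430). mmu_circRNA_29999 (89821877 to 89843334) had levels of -1.28, -1.33 and -1.13 in HuD KO and -0.98, -1.15 and -1.62 in WT, with the HuD KO arrays inside the range of the WT arrays.

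Kalrn, a GEF of dendritic spines, had a circle with levels of 2.10, 2.31 and 2.71 in HuD KO and 1.91, 2.14 and 1.66 in WT (mmu_circRNA_29605, log2 change 0.47, limma adjusted p = 0.0766). Its second circle had levels of -0.78, -0.79 and -0.72 in HuD KO and -0.29, -0.57 and -0.62 in WT (mmu_circRNA_008365, log2 change -0.27, limma adjusted p = 0.134). Neither was called. The circRNA of Arhgef12 changed by 0.11, and that of Elmo1, a partner of DOCK proteins in activating Rac, by 0.07. Neither of these was called.

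Of the Ras and Rap group, Rap1gap2, a GAP of Rap1, was higher. Its mmu_circRNA_23677 had levels of 1.89, 1.78 and 2.18 in HuD KO and 1.63, 1.48 and 1.14 in WT, a change of 0.54 (SE 0.18, limma adjusted p = 0.0329) that turned to -0.16 with scaling on the control probes. It was called under 8 of 17 alternatives, and leaving out 1 of 4 arrays (HuD KO replicate 1 or 3, WT replicate 2 or 3) ended the call (limma adjusted p from 0.0578 to 0.0933). Rap1b, a GTPase of this branch, and Rapgef2, a Rap GEF of neurons, were lower in the main scaling by 0.45 and 0.44, with changes of 0.07 and 0.08 without scaling. The circle of Rap1b fell by 0.45 on the log2 scale (SE 0.13, limma adjusted p = 0.0155) and mmu_circRNA_000400 of Rapgef2 fell by 0.44 (SE 0.13, limma adjusted p = 0.0177). Each was called under 10 of 17 alternatives, and without WT replicate 1 or without WT replicate 2 neither was called, which left 2 of the 4 falls. Circles of Sipa1l1, a Rap GAP of the postsynaptic density, and of Rasal2, a Ras GAP, changed by 0.39 and -0.05 and were not called.

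Rgs7bp encodes a protein that anchors RGS7-type proteins at the membrane. Its mmu_circRNA_26912 had levels of 2.56, 2.62 and 2.76 in HuD KO and 1.97, 1.56 and 0.83 in WT. It rose by 1.19 (SE 0.27, limma adjusted p = 0.00603), with the HuD KO arrays close together and WT replicate 3 well under the other WT arrays. With scaling on the control probes the change was 0.50 and was not called (limma adjusted p = 0.143).

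The ratio of 2 circles of 1 host on the same array does not depend on the scaling between arrays, unless intensities are reshaped, as in quantile normalization or background correction. Across the HuD-bound list there were 200 such pairs, of which 36.0% had a ratio that differed between HuD KO and WT. Of the 7 pairs among GTPase regulator genes, 4 were called, beside 35.2% of the 193 pairs of other hosts. The Agap1 pairs combine the same 3 circles, and both of its called pairs hold mmu_circRNA_012296, so the pairs are not independent of each other. For Agap1, the log2 ratio of mmu_circRNA_20522 to mmu_circRNA_012296 was 1.21, 1.05 and 0.16 in HuD KO and -0.35, -0.74 and -0.56 in WT. It was 1.36 higher in HuD KO (SE 0.27, limma adjusted p = 0.00785; exact permutation p = 0.1, two-sided, the smallest that 3 against 3 arrays allow). HuD KO replicate 3, the array of its own scan, was the closest to WT. Pairs with mmu_circRNA_20522 of Agap1 or mmu_circRNA_41995 of Rab6a hold a circle of the higher table, which was chosen on these same arrays. The tests of their ratios are therefore not independent of that choice.

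The log2 ratio of mmu_circRNA_012296 to mmu_circRNA_017649, the circles that share an end, was -3.77, -3.26 and -3.34 in HuD KO and -2.24, -2.22 and -2.48 in WT. It was lower in HuD KO by 1.15 (SE 0.17, limma adjusted p = 0.00223; exact permutation p = 0.1). The ratio of mmu_circRNA_20522 to mmu_circRNA_017649, the 2 that rose, differed by 0.21 and was not called (limma adjusted p = 0.536; exact permutation p = 0.6).

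For Tiam1, the log2 ratio of mmu_circRNA_29999 to mmu_circRNA_30006 was -0.72, -0.64 and -0.27 in HuD KO and -1.17, -1.31 and -1.40 in WT, 0.75 higher in HuD KO (SE 0.16, limma adjusted p = 0.00949; exact permutation p = 0.1). For Kalrn, the ratio of mmu_circRNA_29605 to mmu_circRNA_008365 was 0.74 higher in HuD KO (SE 0.20, limma adjusted p = 0.0247; exact permutation p = 0.1), although neither circle was called by itself. The Kalrn call was lost with quantile normalization (limma adjusted p = 0.116) and without WT replicate 1, WT replicate 3 or HuD KO replicate 2 (limma adjusted p from 0.0635 to 0.0916). The ratios of the Rab6a and Rab10 circles changed by -0.46 and -0.22 and were not called (limma adjusted p = 0.0524 and 0.311; exact permutation p = 0.1 and 0.3). With scan as a random block, none of the 4 calls remained (limma adjusted p from 0.0656 to 0.191). The sizes of the ratio changes were then 1.25, 1.13, 0.80 and 0.79 for Agap1 (both pairs), Tiam1 and Kalrn.

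**Figure D2:**
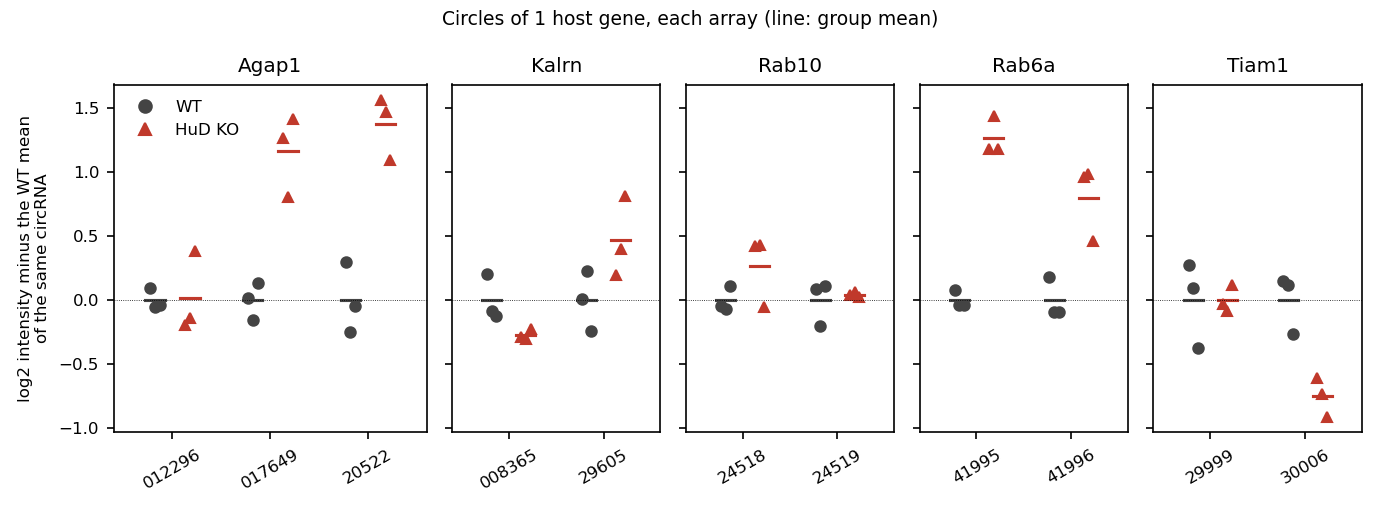
Log2 intensity of each array minus the WT mean of the same circRNA (y axis) for the HuD-bound circles (x axis) of 5 host genes; circles mark WT and triangles HuD KO arrays, lines the group means. In Agap1, mmu_circRNA_017649 and mmu_circRNA_20522 stand 1.16 and 1.37 above WT while mmu_circRNA_012296 stands at 0.02; in Tiam1, mmu_circRNA_30006 stands 0.75 below WT, which fell short of a call without scaling.

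Other members of the same signalling pathways on the HuD-bound list, outside the symbols above, were 37 circRNAs of 29 hosts, from a list of GTPases, other regulators and near effectors. Of these, 17 (45.9%) were called higher and 3 (8.11%) lower, and their median log2 change was 0.53. Of the 11807 probes well above background on all 6 arrays, as all 37 were, 3530 were higher and 3710 lower. Of the HuD-bound circRNAs of all hosts other than the GTPase regulators, these 37 included, 42.9% were called higher and 14.0% lower, and of all probes 26.1% and 37.2%. The falls were those of Rap2a, a Rap GTPase (-2.81, limma adjusted p = 0.000295), Cdc42se2, a small effector of Cdc42 (-2.31), and Git2, an Arf GAP (-1.56). Among the rises were 2 circles of Rims1, a Rab3 effector of the active zone (1.59 and 1.09), a circle of Abi2, a part of the WAVE complex (1.37), and one of Cit, the citron kinase (1.21). All 7 also stood in the lower or higher table, which were chosen on these same arrays, so their calls are not independent of that choice. They were called in the same direction under each of 17 alternatives. With scaling on the control probes, 4 of the 37 were called higher and 14 lower.

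Of the 71 circRNAs in the deposited tables, 70 could be fitted here. mmu_circRNA_21715 of Arfgef3 in the higher table could not be fitted, because only HuD KO replicate 2 had an unflagged spot (level 0.65, against -0.62, -0.63 and -0.65 in WT). All 25 members of the lower table were called lower and all 45 fitted members of the higher table were called higher, which follows from how the tables were chosen. The background shares were 37.2% and 26.1%. The median log2 change was -2.03 in the lower table, a 4.09-fold difference, and 1.25 in the higher table, a 2.38-fold difference. With the authors' normalized values the medians were -1.53 and 1.21. Falls of more than 4-fold numbered 14 of 25, rises of more than 4-fold 2 of 45. These counts hold for the main scaling only. Without scaling, the median rise of the higher table was larger than the median fall of the lower table. The smallest change was -1.18 (Tbc1d1) in the lower table and 0.89 (Rapgef4) in the higher table. Rgs7bp and Agap1 mmu_circRNA_017649, with changes of 1.19 and 1.16, are HuD-bound and stand outside the higher table, while Rab12 at 1.11 stands inside it.

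**Figure D3:**
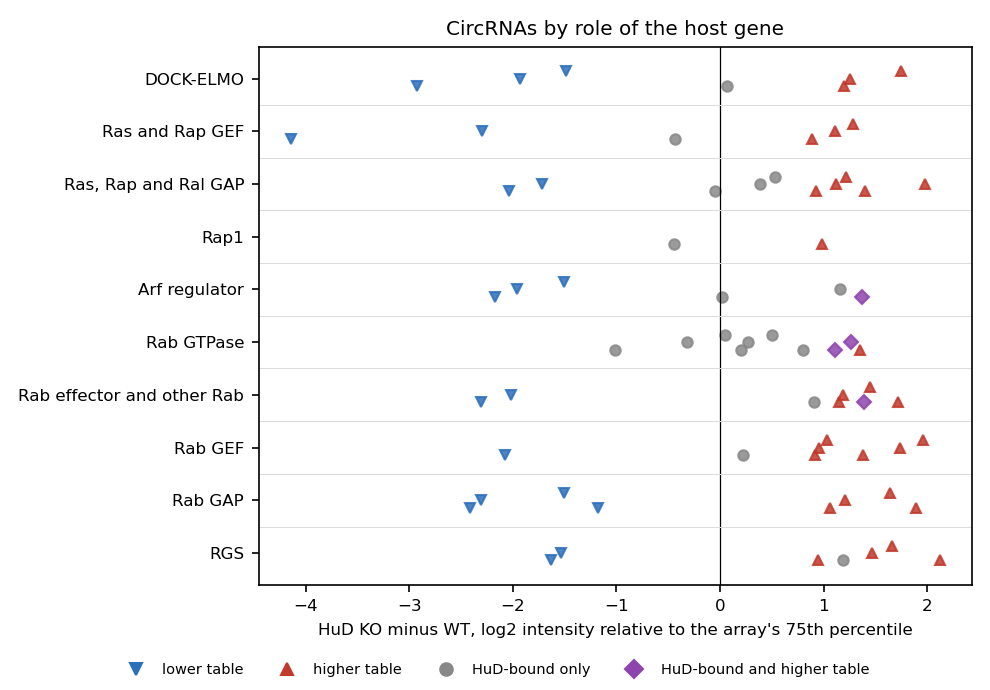
Log2 change (HuD KO minus WT, x axis) of the fitted circRNAs whose host has one of the roles named on the y axis, a row for each role, with symbols for the deposited table and the HuD-bound list. Each role shown with more than 2 circRNAs holds values below as well as above 0; the table members were chosen on these arrays, and they kept their direction under each scaling tried.

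DOCK proteins, which load Rac and Cdc42, had 3 circRNAs in each table. Rab GEFs of the DENN family had 6 in the higher and 1 in the lower table, and Rab GAPs of the TBC family 4 in each. GAPs of Ras, Rap and Ral had 5 higher and 2 lower, GEFs of Ras and Rap 3 and 2, Arf regulators 2 and 3, and RGS genes 4 and 2. Rab GTPases had 3 in the higher table and 0 in the lower. Over all hosts, the higher table held 1140 circRNAs and the lower 1348, of which the members described here made up 4.04% and 1.85%. The counts by role are small and were not tested. Circles of 1 host are counted separately, so that 3 of the 4 higher circles of Rab GAPs came from Rabgap1l. By circle class, 18 of the 25 lower members were exonic (72.0%, against 65.9% of the rest of that table), and 41 of the 46 higher members (89.1%, against 83.0%). The other lower members were 4 sense overlapping, 2 intronic and 1 antisense circRNA. Of the lower members 0 of 25 were HuD-bound, where 19 of the other 1323 circRNAs of that table (1.44%) were; of the higher members 4 of 46 were (8.70%), against 67 of 1094 (6.12%).

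The largest fall was that of mmu_circRNA_35619 of Rapgef2 (chromosome 3, 79081061 to 79083322, exonic). Its levels were 2.85, 3.22 and 2.62 in WT and -1.04, -1.34 and -1.35 in HuD KO, a log2 change of -4.14 or 17.6-fold. The HuD-bound circle of the same gene, mmu_circRNA_000400 (79103962 to 79112302), lies 20640 bp away and had levels of -0.69, -0.70 and -0.69 in WT and -1.23, -1.10 and -1.07 in HuD KO. Both circles of Rapgef2 were thus below WT on every HuD KO array, 17.6-fold in the first and 1.36-fold in the second; without scaling the second changed by 0.08.

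Among members well above background on all 6 arrays, the next falls were those of Dock8, a GEF of Cdc42 best known in immune cells (-2.92), an intronic circRNA of Arhgap12 (-2.55), Tbc1d19 (-2.41), Tbc1d20, a GAP of Rab1 (-2.30), and an intronic circRNA of Rab11fip3, an effector of Rab11 (-2.30). Under the alternative settings the smallest falls were -1.27 for Dock8, -1.29 for Arhgap12, -1.57 for Tbc1d19 and -1.79 for both Tbc1d20 and Rab11fip3. The order of these falls thus depended on the processing. The Dock8 circle had levels of -0.97, -0.95 and -1.18 in WT and -4.09, -3.60 and -4.18 in HuD KO. The Rab11fip3 circle had levels of 3.00, 3.15 and 3.13 in WT and 0.83, 0.86 and 0.68 in HuD KO. The Tbc1d20 circle had levels of 2.32, 2.09 and 2.52 in WT and -0.47, -0.57 and 1.06 in HuD KO, so that HuD KO replicate 3 fell least. The circle of Iqsec2, an Arf GEF of the synapse, also fell least in HuD KO replicate 3, with levels of -0.65, -0.49 and 1.12 in HuD KO against 1.94, 2.13 and 2.42 in WT. The Arhgef2 circle (-3.11) was well above background on only 2 of the 3 HuD KO arrays, and that of Rapgef6 (-2.30) had 2 unflagged HuD KO values.

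The largest rise was that of mmu_circRNA_011784 of Arhgap10, with a span of 231 bp. Its levels were -1.84, -2.11 and -2.56 in WT and 0.14, 0.15 and 0.34 in HuD KO, a log2 change of 2.38 or 5.20-fold. A second circle of Arhgap10, mmu_circRNA_003169, rose by 1.82, from 3.21, 3.12 and 2.19 in WT to 4.84, 4.73 and 4.40 in HuD KO. The 2 lie 85532 bp apart. Ralgapa1, the catalytic subunit of a Ral GAP, had circles that rose by 1.98 and 1.40, and Dennd4c, a GEF of Rab10, by 1.96 and 0.92. In both hosts 1 of the 2 circles lies within the span of the other. The Ralgapa1 circles were dim in WT, with mean levels of -4.24 and -3.76. Their smallest changes under the alternative settings were 0.36 and 0.23, and those of the Dennd4c circles 1.08 and 0.23.

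Rabgap1l and Rgs6 each had 3 circRNAs in the higher table. Rabgap1l encodes a Rab GAP of the TBC family, and its circles are nested on chromosome 1. mmu_circRNA_21123, which spans 398896 bp, rose by 1.89, mmu_circRNA_21128 within it by 1.21 and mmu_circRNA_21130 within both by 1.64. The levels of mmu_circRNA_21123 were -2.23, -2.38 and -2.51 in WT and -0.48, -0.27 and -0.71 in HuD KO. Rgs6 encodes an RGS protein that speeds GTP hydrolysis by heterotrimeric G proteins. Its mmu_circRNA_25462 rose by 2.12, from -3.32, -2.97 and -3.22 in WT to -0.87, -1.10 and -1.17 in HuD KO. The smallest rise of this circle under the alternative settings was 0.73. The other two, mmu_circRNA_25461 and mmu_circRNA_25464, rose by 1.66 and 1.47.

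Fgd4 and Dennd6a had circRNAs in both tables. Fgd4 encodes frabin, a GEF of Cdc42. Its exonic mmu_circRNA_012606 (chromosome 16, 16453991 to 16477513) had levels of 1.46, 1.38 and 1.94 in WT and 2.81, 2.90 and 2.66 in HuD KO, a rise of 1.20. The sense overlapping mmu_circRNA_29333 (16422642 to 16504216), whose span encloses it, had levels of -1.31, -1.13 and -1.60 in WT and -3.65, -3.17 and -3.98 in HuD KO, a change of -2.25. Dennd6a encodes a GEF of Rab14. Its exonic mmu_circRNA_014684 rose by 0.96, from -1.32, -1.38 and -1.48 in WT to -0.16, -0.11 and -1.03 in HuD KO. The antisense mmu_circRNA_27253, 9191 bp away, changed by -2.07. In both hosts the exonic circle was the one that rose.

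Both kinds of list met in 8 hosts: Agap1, Rab6a, Rab11fip4, Rab12, Rabep1, Rapgef2, Sipa1l1 and Tiam1. Sipa1l1 had a HuD-bound exonic circle, mmu_circRNA_25444, with levels of 3.65, 3.61 and 3.22 in HuD KO and 3.31, 3.18 and 2.83 in WT. A sense overlapping circle of 1840 bp within its span, mmu_circRNA_19074, had levels of 2.67, 2.72 and 3.18 in HuD KO and 1.74, 1.69 and 1.78 in WT, a change of 1.12. Rabep1 had a second circle 15503 bp from the HuD-bound one, mmu_circRNA_008094, that changed by 1.15. Between the 2 HuD-bound circles of Tiam1 lies mmu_circRNA_008457 of the lower table. Its levels were 3.06, 3.01 and 3.04 in WT and 1.48, 1.48 and 1.91 in HuD KO, a change of -1.41. The 3 circles of Tiam1 therefore stood at -1.41, -0.75 and 0.00 from WT, of which the first was chosen by the table.

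**Figure D4:**
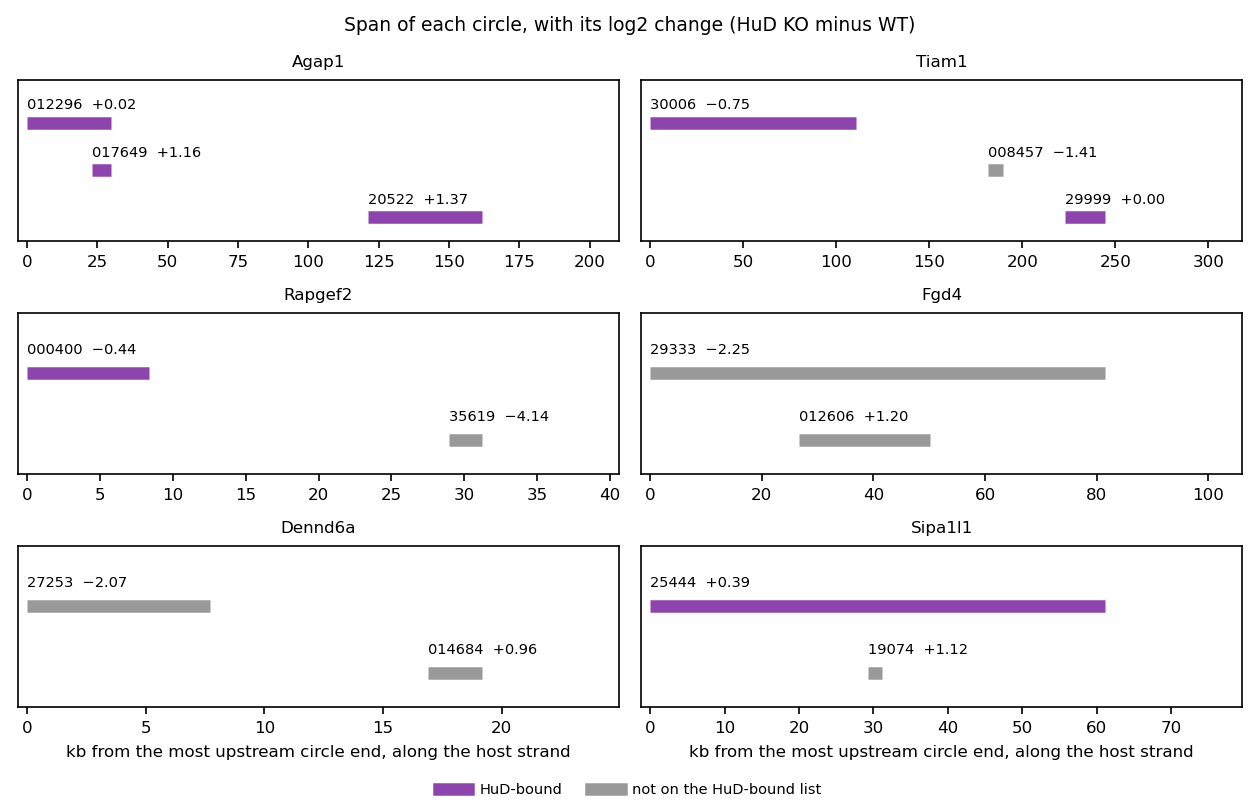
Span of each circle (bars, x axis in kb from the most upstream circle end along the host strand) in 6 host genes, labelled with the circRNA number and its log2 change (HuD KO minus WT); HuD-bound circles are coloured. Circles of 1 host differed in size and in direction: in Fgd4 the outer circle changed by -2.25 and the inner one by 1.20, and in Agap1 the outer one by 0.02 and the inner one by 1.16; the small changes of mmu_circRNA_000400 of Rapgef2 (without scaling), and of mmu_circRNA_25444 of Sipa1l1, mmu_circRNA_29999 of Tiam1 and mmu_circRNA_012296 of Agap1 (with scaling on the control probes) flipped sign.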

How the data were processed

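Per the labels, the authors treated total RNA with RNase R, amplified and labelled it by random priming and hybridised it to a mouse circRNA array, whose images went through Agilent Feature Extraction (version 11.0.1.1). In the deposited scanner files the unit is spot intensity, background-corrected within each array but not normalized between arrays. The authors' lower and higher tables hold normalized log2 values of the 6 arrays beside their own fold changes and p-values, which were not used; the normalization and genome build are not given in the sources used here, and limma is named in the submitters' processing notes without a version. Columns of other samples numbered 0. Of the HuD-bound list, only membership, annotation and sequences were used; it holds 658 circRNAs here, fewer than the study counted, and the others were not analysed here.

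Here, log2 intensity was scaled to the 75th percentile of each array's circRNA probes, outlier-flagged spots were left out, and a probe well above background on all 3 arrays of a group, with at least 2 values in each group, was fitted with limma 3.58.1 in R 4.3.3 (lmFit, eBayes, no covariate, all 6 arrays), adjusted over 13431 probes and called under 0.05. Within-array ratios of HuD-bound pairs of 1 host were fitted likewise, adjusted over 200 pairs, with an exact permutation test in SciPy 1.17.1. Described in full were all HuD-bound members, and of the table members the 6 largest falls and rises well above background on all arrays, hosts with 3 or more, hosts in both tables, and hosts with a HuD-bound and a table circle; Iqsec2, Arhgef2, Rapgef6, Tbc1d1, Rapgef4, Arfgef3 and the other pathway genes were named after their values were seen. The members and lists were chosen with earlier results of these data known. The normexp alternative (offset 50) used spot medians, as the files give no spot means. The fit was tested on simulated data. Arrays of a group are mice of 1 genotype; replicate numbers did not pair them (correlation of deviations -0.00926, -0.0283 and -0.0765). Precision is limited by the few arrays. Counts for some roles of host genes are not reported here.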

Additional observations from a re-analysis of the deposited data

How the results depend on the processing

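Of the 27 changes of HuD-bound circRNAs under 17 alternatives, 374 of 459 values kept direction and side of the threshold, 28 lost the call, 25 gained one and 32 changed sign; of 98 values of the pair ratios, 83 were kept. The calls of Rab6a mmu_circRNA_41995, Agap1 mmu_circRNA_20522 and Rab11fip4, all also in the higher table chosen on these arrays, held under all 17. Of the 13 calls, 8 held under all but scaling on the control probes, and these 8 include the 3 just named. The cause of these differences was not tested. Without scaling, 5339 probes were higher and 2553 lower, with 17 and 0 of the 27 and 26 higher of the 37 other pathway circRNAs; with scaling on the control probes the counts were 819 and 8374, 3 and 15, and 4 and 14. With the array median 15 of the 27 were higher and 2 lower, with quantile normalization 1 was lower and with scan as a random block 2. With normexp 5 of the 37 were lower. Called pairs numbered 2 with the methods' t-test and 0 with scan as a random block. The lower-table median was -1.29 with normexp, -1.84 with quantile normalization, -1.83 with the array median, -1.52 without scaling, -2.73 with control probes and -1.53 with the authors' values; the higher-table median was 0.80 with normexp, 1.77 without scaling and 0.56 with control probes.

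Signs changed with scaling on the control probes for Agap1 mmu_circRNA_012296 (-0.68), Arhgef12 (-0.58), Dennd1a (-0.47), Elmo1 (-0.62), Kalrn mmu_circRNA_29605 (-0.22), Rab10 mmu_circRNA_24518 (-0.43) and mmu_circRNA_24519 (-0.65), Rab11a (-0.49), Rab21 (-0.19), Rap1gap2 (-0.16), Sipa1l1 (-0.31) and Tiam1 mmu_circRNA_29999 (-0.69). They changed without scaling for Kalrn mmu_circRNA_008365 (0.25), Rab1 (0.20), Rap1b (0.071), Rapgef2 (0.079) and Rasal2 (0.47), with quantile normalization for Elmo1 (-0.025) and Rab10 mmu_circRNA_24519 (-0.096), and with the median for Rasal2 (0.15). With normexp they changed for Rasal2 (0.0066), Tiam1 mmu_circRNA_29999 (-0.095) and the ratio of Agap1 mmu_circRNA_20522 to mmu_circRNA_017649 (-0.15), and with outlier spots kept for Tiam1 mmu_circRNA_29999 (-0.0077).

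Leaving out 1 array in turn gave 2743 to 3873 higher and 4326 to 5276 lower probes, 8 to 10 and 2 to 4 of the 27, 14 to 22 and 3 to 5 of the 37 (5 lower without HuD KO replicate 3) and 3 to 5 called pairs. The lower-table median ran from -2.18 to -1.93 and the higher-table median from 1.17 to 1.36. Changes that crossed 0 were those of Agap1 mmu_circRNA_012296 (-0.17 to 0.12), Elmo1 (-0.018 to 0.20), Rab10 mmu_circRNA_24519 (-0.054 to 0.10), Rasal2 (-0.12 to 0.022), Tiam1 mmu_circRNA_29999 (-0.18 to 0.14) and the ratio of Agap1 mmu_circRNA_20522 to mmu_circRNA_017649 (-0.015 to 0.47). With the replicate number as a block, which the arrays share only as a number, 8 of the 27 were higher and 4 lower, 3200 and 4776 of all probes, 15 and 3 of the 37, and 4 pairs were called. Dim probes limit what small changes can be seen, and 3 arrays a group limit the precision.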
